A study of Mus musculus with 4 samples.

Results

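The BAF (SWI/SNF) complexes remodel chromatin by sliding and ejecting nucleosomes with energy from ATP, and their subunit genes were examined here for open chromatin in metastasizing and non-metastasizing lung cancer cells. The 10 genes were *Smarca4* (*Brg1*), *Smarca2*, *Arid1a*, *Arid1b*, *Arid2*, *Pbrm1*, *Actl6a*, *Actl6b*, *Dpf1* and *Smarcd3*, of 21938 protein-coding genes in all. The peaks that overlapped the gene body or the 20 kb on either side of it were taken for each gene, and this stretch is called its locus. Peaks of the 4 libraries that overlapped by at least 1 base were merged into regions, which gave 380 regions at the 10 loci of 357570 in all and of 254403 at the loci of any protein-coding gene.

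ATAC-seq, in which a transposase inserts adapters wherever DNA is accessible, was performed on 2 SMC and 2 non-SMC cell lines with 1 library per line. SMC are NCAMhiCD44lo/- cells and non-SMC are NCAMloCD44hi cells, sorted by FACS from lung tumors of the *RP* model of small cell lung cancer (SCLC). In *RP* mice both alleles of *Rb1* and of *Trp53* are floxed and are deleted by adenovirus that carries Cre under the CMV promoter, so all 4 lines share the loss of both genes, and none carries an engineered *Brg1* allele. The mice were of mixed background (C57Bl/6, Balb-c and S129), the lines were untreated and grown in RPMI1640, and SMC lines grew in suspension whereas non-SMC lines were adherent, so that cell type and growth form cannot be told apart. The labels call the lines paired and number them 1 and 2, without saying what a pair shares. With 2 lines against 2, a two-sided exact permutation test cannot give a p under 0.333, so no difference between the types was tested. Each difference is instead given with the SD of lines within a type.

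SMC lines 1 and 2 had lists of 91118 and 154039 peaks at an implied depth of 8.36 M and 29.4 M reads, and non-SMC lines 1 and 2 had lists of 115909 and 128788 peaks at 23.5 M and 10.4 M reads. The least covered peak had 3 fragments in SMC line 1 and non-SMC line 2 and 5 fragments in the deeper libraries. A region without a peak in a line was therefore not detectable as open at that depth, which is not the same as closed. As a check of the labels, the promoter of the neuroendocrine gene *Chga* was open in both SMC lines but not detectably in the non-SMC lines, and the SMC markers *Insm1*, *Chga* and *Sox11* had a larger share of the peaks in both SMC lines. All 4 markers of non-SMC (*Cd44*, *Vim*, *Wwtr1* and *Yap1*) had a larger share in both non-SMC lines. *Neurod1* had no peak at its locus in SMC line 1. *Ncam1*, the gene of the sorted antigen NCAM, was not higher in SMC, with 11.0 and 22.7 of 100000 peaks at its locus in the SMC lines and 31.1 and 21.8 in the non-SMC lines. Of the markers of other cell types, the promoter of *Epcam* was open in the SMC lines alone and that of *Pecam1* in the non-SMC lines alone, the promoter of *Ptprc* had a peak in non-SMC line 1 alone, and *Cdh5*, *Col1a1* and *Pdgfrb* had promoter peaks in lines of both types. Of these 6 genes, 1 (*Pecam1*) had a larger share in both non-SMC lines and 0 had a larger share in both SMC lines. Each of the 6 loci had a peak in every line, and the part of other cells in the results was not tested.

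Each BAF complex holds 1 ATPase, either BRG1 or BRM, the products of *Smarca4* and *Smarca2*. *Arid1a* and *Arid1b* encode the DNA-binding subunits that define canonical BAF and exclude each other, whereas *Arid2* and *Pbrm1* encode subunits of the PBAF form. When neural progenitors leave the cell cycle, *Actl6a* gives way to its neuronal paralog *Actl6b* and other subunits are exchanged for neuronal forms that include the product of *Dpf1*, which makes the family relevant to tumor cells that take on a neuroendocrine state. *Smarcd3* encodes BAF60C, the form of its subunit known from heart and skeletal muscle.

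Among the 380 regions, 12 were open in the 2 SMC lines without a peak in non-SMC (SMC-only), 22 had the opposite pattern (non-SMC-only) and 30 had a peak in all 4 libraries. These are 3.16%, 5.79% and 7.89% of the regions, beside 4.28%, 7.17% and 4.89% over the loci of all protein-coding genes, so the one-type shares of the 10 genes were near the background or below it. A further 278 regions had a peak in a single library, 106 of them in SMC line 2, which had the highest implied depth. Of the 34 one-type regions, 7 had a −log10 q of at least 5 in both lines of their type, which is 20.6% of them, beside 29.8% of the one-type regions over all loci. All of these 7 lay in introns, beside 69.6% of such regions over all loci. Of the 7, 4 belonged to *Arid1b*, with 1 each at *Arid1a*, *Arid2* and *Smarcd3*. The 7 are printed here because each passed this threshold in both lines of one type and had no peak in the other, although some other one-type regions had a higher mean percentile. They are joined by the *Arid1b* region that was open in all 4 lines but ranked higher in both non-SMC lines. Each sequence is the 201 bases centred on the summit of its strongest peak, on the + strand of GRCm38 (the assembly of mm10), and capitals mark matches on either strand to the motifs searched.

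*Arid1b* +14.1 kb, SMC-only, chr17:5008303-5008503: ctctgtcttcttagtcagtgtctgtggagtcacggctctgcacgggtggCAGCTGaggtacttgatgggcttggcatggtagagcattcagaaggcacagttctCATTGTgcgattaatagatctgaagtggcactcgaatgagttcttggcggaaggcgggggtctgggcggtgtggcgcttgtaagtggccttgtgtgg
*Arid1b* +131.7 kb, SMC-only, chr17:5125943-5126143: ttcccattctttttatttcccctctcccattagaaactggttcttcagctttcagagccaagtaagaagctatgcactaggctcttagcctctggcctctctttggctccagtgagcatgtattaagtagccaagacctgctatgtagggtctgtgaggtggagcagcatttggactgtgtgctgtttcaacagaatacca
*Arid1b* +100.5 kb, non-SMC-only, chr17:5094759-5094959: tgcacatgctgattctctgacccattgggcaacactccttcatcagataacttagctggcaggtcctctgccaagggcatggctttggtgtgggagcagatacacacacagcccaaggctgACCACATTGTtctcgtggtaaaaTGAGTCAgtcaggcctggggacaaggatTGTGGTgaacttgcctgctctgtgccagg
*Arid1b* +243.7 kb, non-SMC-only, chr17:5237918-5238118: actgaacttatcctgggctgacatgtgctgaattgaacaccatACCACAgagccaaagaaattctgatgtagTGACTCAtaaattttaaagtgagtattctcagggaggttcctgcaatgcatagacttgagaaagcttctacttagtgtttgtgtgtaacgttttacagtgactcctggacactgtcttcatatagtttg
*Arid1a* +68.2 kb, non-SMC-only, chr4:133688491-133688691: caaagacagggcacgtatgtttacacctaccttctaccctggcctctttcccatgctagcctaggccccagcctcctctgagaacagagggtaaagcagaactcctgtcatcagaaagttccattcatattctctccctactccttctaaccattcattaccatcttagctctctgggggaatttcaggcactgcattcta
*Arid2* +90.0 kb, non-SMC-only, chr15:96377405-96377605: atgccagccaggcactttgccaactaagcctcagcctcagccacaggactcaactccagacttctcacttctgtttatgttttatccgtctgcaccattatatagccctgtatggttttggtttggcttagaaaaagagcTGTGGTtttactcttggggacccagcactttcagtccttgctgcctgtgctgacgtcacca
*Smarcd3* +12.3 kb, non-SMC-only, chr5:24612061-24612261: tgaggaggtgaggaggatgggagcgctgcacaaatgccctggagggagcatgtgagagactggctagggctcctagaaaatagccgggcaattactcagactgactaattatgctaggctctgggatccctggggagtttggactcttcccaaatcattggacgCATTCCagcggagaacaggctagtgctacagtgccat
*Arid1b* +144.6 kb, all 4 lines, chr17:5138832-5139032: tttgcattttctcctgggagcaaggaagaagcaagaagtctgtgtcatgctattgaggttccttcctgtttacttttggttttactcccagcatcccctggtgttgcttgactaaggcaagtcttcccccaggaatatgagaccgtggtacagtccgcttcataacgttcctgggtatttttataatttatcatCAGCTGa

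The letters searched were TGACTCA for AP-1, GGAATG for TEAD factors and TGTGGT for RUNX factors. E-boxes, the sites of basic helix-loop-helix factors, were searched as CAGCTG and, separately, in the form CAGATG. SOX factors were searched as ACAAAG or as ACAATG, and NFI by its usual palindrome. The AP-1 letters stood at 2 of these sequences, *Arid1b* +100.5 kb and *Arid1b* +243.7 kb, both non-SMC-only and both with a RUNX match as well. In *Arid1b* +100.5 kb a RUNX match and a SOX match overlap in 1 run of capitals. *Arid1b* +14.1 kb held a CAGCTG E-box and a SOX match, whereas *Arid1b* +131.7 kb and *Arid1a* +68.2 kb held none of the motifs. Over all non-SMC-only regions of the 10 genes, AP-1 letters lay within 100 bp of the summit at 7 of 22 (31.8%, beside 45.0% over all loci) and RUNX letters at 8 of 22 (36.4%, beside 28.7%). Among the SMC-only regions AP-1 was at 0 of 12 (3.82% over all loci), SOX at 5 of 12 (41.7%, beside 38.4%), CAGCTG at 3 of 12 (25.0%, beside 20.9%) and CAGATG at 3 of 12 (25.0%, beside 18.9%). TEAD letters were at 3 of 22 non-SMC-only regions (13.6%, beside 18.8%) and at 1 of 12 SMC-only regions (8.33%, beside 9.27%). RUNX letters were at 1 of 12 SMC-only regions (8.33%, beside 13.8%), and no one-type or shared region of the 10 genes held the NFI motif. A match describes the letters in the window and not a bound site.

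**Figure D1:**
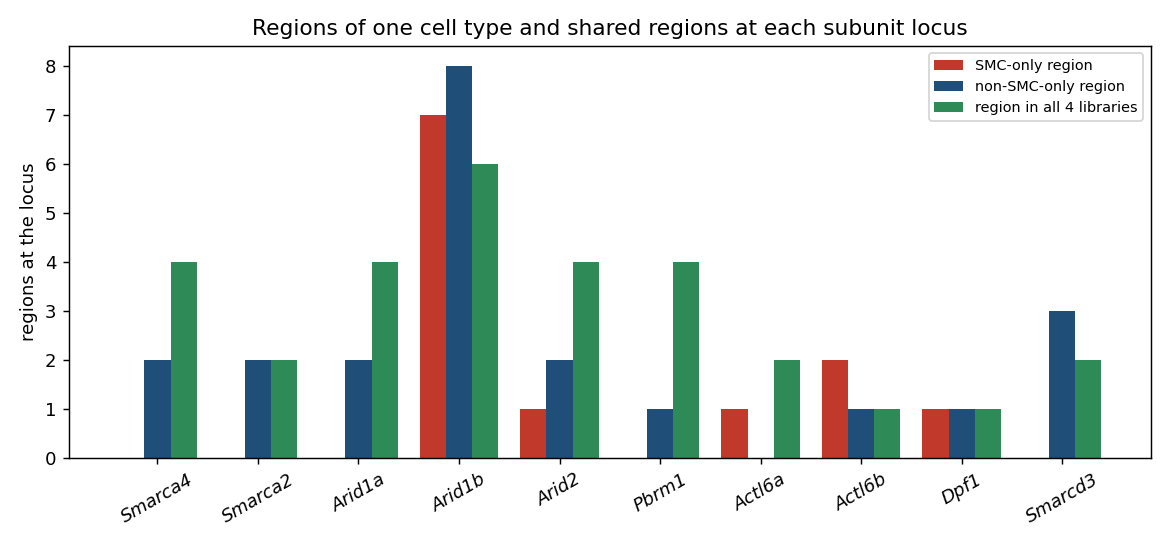
Number of regions (vertical axis) at each of the 10 loci that were SMC-only (red), non-SMC-only (blue) or open in all 4 libraries (green). *Arid1b* held 7 SMC-only regions of 12 and 8 non-SMC-only regions of 22, and *Smarcd3* held 3 non-SMC-only and 0 SMC-only regions.

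All 10 genes had a peak within the 6 kb centred on the gene's 5′ end in all 4 libraries, against 48.7% of all protein-coding genes. None had a promoter peak in one cell type alone, against 3.08% SMC-only and 2.45% non-SMC-only promoters over all genes. Many of these peaks were weak: when the −log10 q had to reach 5, 2 of the 10 promoters were called in all 4 libraries. These were *Smarca2* and *Actl6a*. The highest promoter peak ranked higher in its list in both SMC lines than in either non-SMC line at *Smarca4*, *Arid1a*, *Arid1b* and *Pbrm1* (4 of 10, beside 32.4% of the promoters open in all 4 libraries) and higher in both non-SMC lines at *Dpf1* (1 of 10, beside 13.1%). At *Arid1b* the peaks compared had summits at +32 and +906 bp in the SMC lines and at +3075 and +3 bp in the non-SMC lines. The order there depends on the edge of the window. A peak of non-SMC line 2 at +3115 bp (percentile 89.0) began just outside it, as did one of SMC line 2 at +3126 bp (percentile 82.8). Peaks were ranked by the percentile of their fold enrichment within their own list, because the lists come from libraries of different depth and p-values depend on depth. The share of peaks that reached a −log10 q of 5 ran from 14.3% to 38.0% over the lists, so a rank gives the place within a list and not a level of opening.

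**Figure D2:**
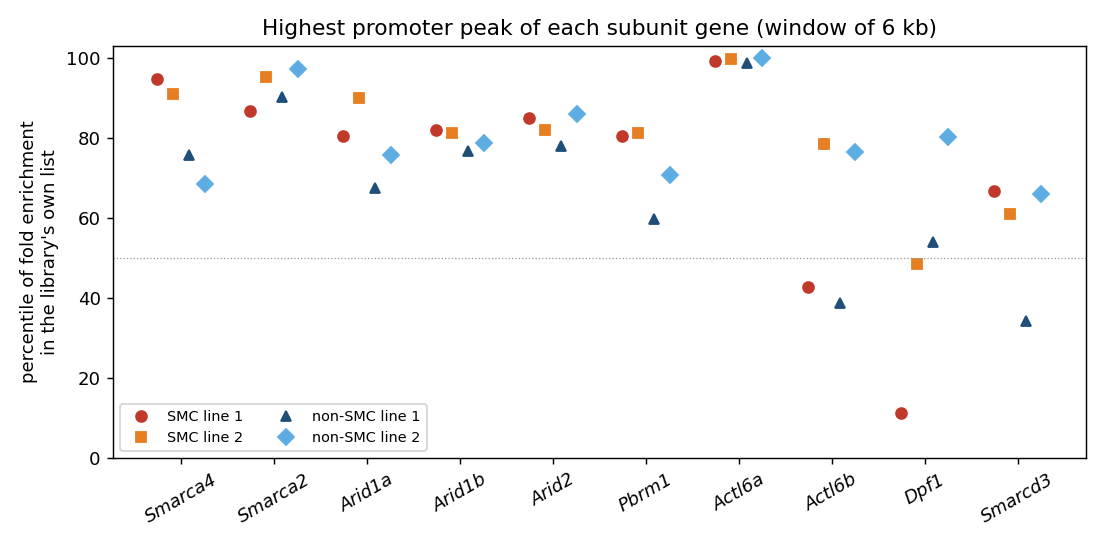
Percentile of fold enrichment, in the library's own list, of the highest peak within 6 kb centred on the 5′ end of each gene, for SMC line 1 (circles), SMC line 2 (squares), non-SMC line 1 (triangles) and non-SMC line 2 (diamonds). The *Actl6a* peak was above the 98th percentile in all 4 lines, whereas *Actl6b*, *Dpf1* and *Smarcd3* had values below 50 in at least 1 line.

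*Smarca4*, which encodes the ATPase BRG1, lies at chr9:21616169-21704230 on the + strand. At its promoter (chr9:21615574-21616181) the fold enrichment was 8.21 and 6.46 in the SMC lines against 6.40 and 4.16 in the non-SMC lines. These peaks stood at percentiles 94.8 and 91.1 of the SMC lists and 75.8 and 68.4 of the non-SMC lists, and the order of the ranks put both SMC lines first. On other scales the types were closer. SMC line 2 and non-SMC line 1 were alike in fold enrichment and in −log10 q (10.4 and 10.8), and the pileup (the fragments over the summit) per 10 M reads overlapped, with 17.9 and 7.15 in SMC and 8.92 and 5.78 in non-SMC. Over the locus, 13 and 21 peaks in the SMC lines and 14 and 12 in the non-SMC lines gave 14.3 and 13.6 per 100000 peaks of the SMC lists and 12.1 and 9.32 per 100000 of the non-SMC lists. The groups did not overlap, and the difference in log2 share was 0.38 with an SD of 0.19 within types. It was 0.06 when every list was reduced to the same number of top peaks, 0.64 without flanks and 1.13 when the −log10 q had to reach 5. The value of 1.13 rests on 3 and 3 such peaks in the SMC lines and 5 and 1 in the non-SMC lines. The whole lists held 13062 and 26312 such peaks in SMC and 43984 and 25103 in non-SMC. Within the locus 0 regions were SMC-only and 2 were non-SMC-only. One of these stood 6.1 kb before the 5′ end (chr9:21609935-21610133, percentiles 79.5 and 80.9) and held AP-1 and RUNX letters, and the other was 76.5 kb inside the gene (chr9:21692148-21692987, percentiles 78.8 and 65.7).

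*Smarca2*, the gene of the alternative ATPase BRM, lies at chr19:26605050-26778322 on the + strand and is annotated with 42 transcript starts. Its promoter was open in all lines at percentiles 86.6 and 95.1 in SMC and 90.3 and 97.2 in non-SMC, and these ranges overlapped. The share of the locus overlapped too, with 8.79 and 11.0 per 100000 peaks in SMC and 11.2 and 9.32 in non-SMC. The cell types differed in position at the inner starts of the gene, where shorter transcripts are annotated. A region there (chr19:26747328-26748479) was open in all 4 lines, but its summit was at +142.50 and +142.49 kb in the SMC lines and at +142.96 and +143.00 kb in the non-SMC lines. The 2 annotated starts at +142.6 kb had a peak within 100 bp in both SMC lines and non-SMC line 1. The 14 starts between +143.1 and +143.5 kb had a peak within 100 bp in the 2 non-SMC lines but in neither of the SMC lines. The peaks stood at percentiles 65.8 and 97.4 in SMC and 88.6 and 82.1 in non-SMC, with a −log10 q of 1.99 in SMC line 1 and between 5.60 and 23.0 in the others. Over the 105 distinct transcript starts of the 10 genes, 15 were reached in the non-SMC lines alone (2.29% over the starts of all genes), 3 in the SMC lines alone (2.21%) and 22 in all 4 libraries (27.2%). The 14 starts of *Smarca2* were reached by 1 peak in each line, so they count as a single difference.

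**Figure D3:**
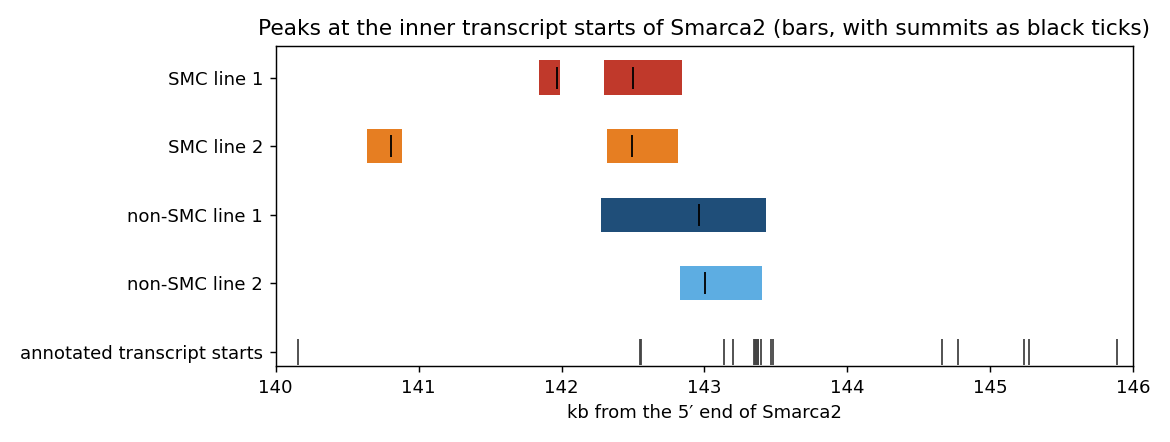
Peaks around the inner transcript starts of *Smarca2* in each library (bars, with the summit as a black tick) and the annotated transcript starts (grey ticks), by distance in kb from the 5′ end of the gene. The SMC peaks with summits at +142.50 and +142.49 kb end before the cluster of 14 starts that the 2 non-SMC peaks reach.

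*Arid1b* was the member with the most regions of either one-type kind. It encodes the canonical BAF subunit ARID1B, lies at chr17:4994332-5347656 on the + strand and is the longest of the 10 genes. Its locus held 37 and 75 peaks in the SMC lines and 46 and 44 in the non-SMC lines, or 40.6 and 48.7 per 100000 against 39.7 and 34.2 per 100000. The SMC lines were higher without overlap, although SMC line 1 and non-SMC line 1 were close, with a difference of 0.27 in log2 share (SD 0.17). It had 7 SMC-only, 8 non-SMC-only and 6 shared regions. At least as many of both one-type kinds were found at 59 of the 21938 loci and at 47 of the 435 loci that were as long or longer.

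The SMC-only region 14.1 kb into *Arid1b* (chr17:5008141-5008597) ranked at the 98.0th and 98.4th percentiles, with a fold enrichment of 10.4 and 11.2 and a −log10 q of 14.6 and 34.0. A second SMC-only region at +131.7 kb (chr17:5125920-5126161) ranked at 98.2 in SMC line 1 and 85.7 in SMC line 2. The others were at +35.9, +59.2, +204.2, +301.5 and +336.5 kb and were weaker in at least 1 line. Opposite to these, the non-SMC-only region at +100.5 kb (chr17:5094574-5095250) had a fold enrichment of 13.9 and 13.0 at percentiles 97.1 and 98.7, with a −log10 q of 55.3 and 27.5. The non-SMC-only region at +243.7 kb (chr17:5237746-5238286) ranked at 66.7 and 93.6. The strong one-type regions of SMC and non-SMC thus alternated along the gene. At +144.6 kb (chr17:5138533-5139198) all 4 lines had a peak, but at percentiles 73.4 and 70.6 in SMC and 98.9 and 98.9 in non-SMC, with a fold enrichment of 4.30 and 3.55 against 16.2 and 13.4. The strongest shared region in the gene body was at +195.7 kb (chr17:5189493-5190570), at percentiles 90.5, 95.8, 94.1 and 99.6. The 3 transcript starts in the first 0.7 kb of the gene had a peak in all 4 lines, at percentiles between 58.2 and 81.9.

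**Figure D4:**
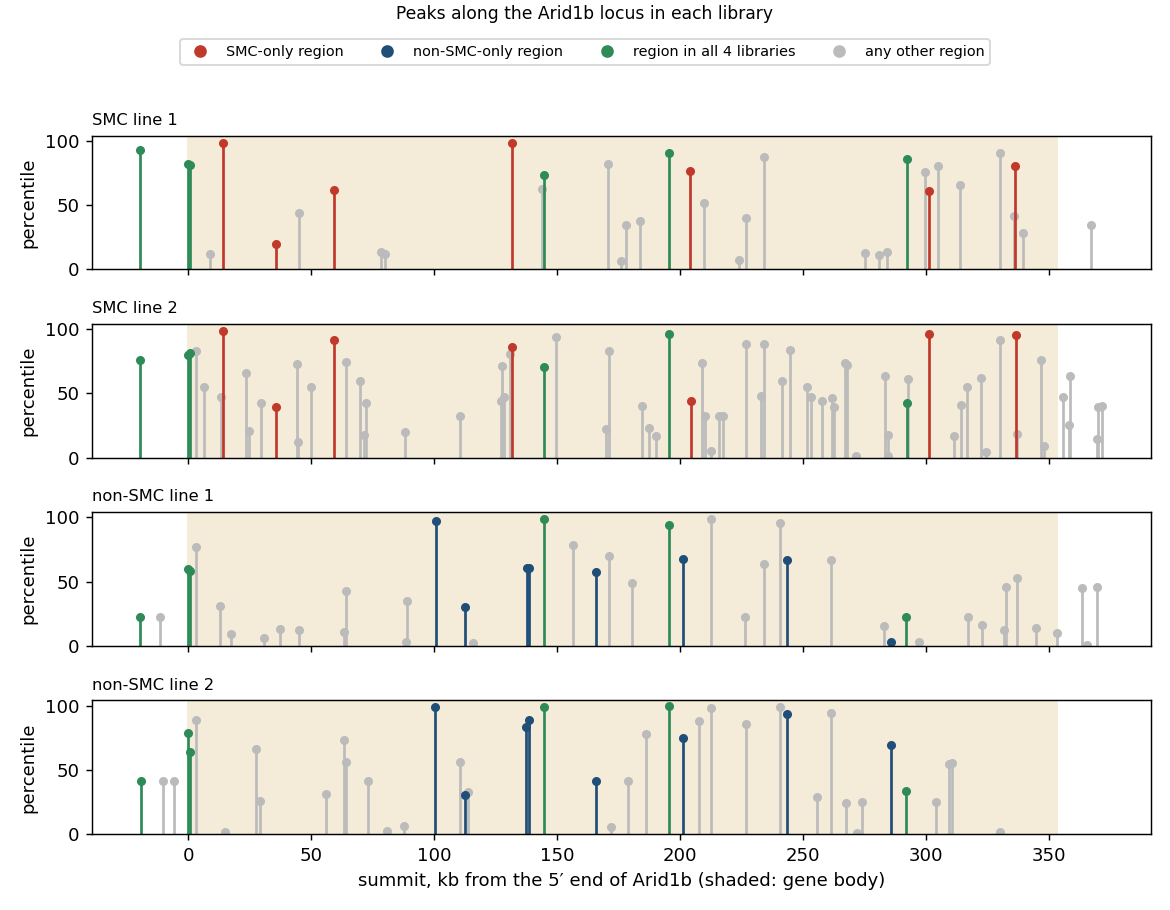
Peaks along the *Arid1b* locus in each library, by distance of the summit from the 5′ end in kb (horizontal axis, gene body shaded) and percentile of fold enrichment in the library's own list (vertical axis), colored by the pattern of their region. The red SMC-only peaks at +14.1 and +131.7 kb reach 98.0 and 98.2 in SMC line 1, and the blue non-SMC-only peaks at +100.5 kb reach 97.1 and 98.7 in the non-SMC lines.

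*Arid1a*, which encodes the paralog ARID1A, lies at chr4:133679008-133756769 on the − strand. Its share of the peaks was 8.79 and 9.74 per 100000 in SMC and 8.63 and 8.55 in non-SMC, a difference of 0.11 in log2 share (SD 0.056), and the groups did not overlap. The peak at its 5′ end (chr4:133756660-133757715) ranked at 80.4 and 90.0 in SMC and 67.5 and 75.6 in non-SMC. Within the gene 0 regions were SMC-only and 2 were non-SMC-only, at +68.2 kb (chr4:133688393-133688853, percentiles 75.1 and 83.8) and, in an exon, at +76.4 kb (chr4:133680291-133680523, percentiles 51.2 and 82.5). A shared intronic region at +27.0 kb (chr4:133729487-133730432) ranked higher in both non-SMC lines, at 95.9 and 94.3 against 93.5 and 92.7, by margins of a few percentiles.

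Among the PBAF genes, *Arid2* (chr15:96287518-96404992, + strand) had no peak within 100 bp of its 4 annotated starts in any of the 4 lines. Each line had 2 promoter peaks, both upstream. The nearer had its summit at −761 and −781 bp in the SMC lines and at −795 and −798 bp in the non-SMC lines and was the higher of the 2 in SMC, whereas the farther, at −1723 and −1742 bp in the non-SMC lines, was the higher in non-SMC. Both positions were open in all 4 lines, and each type ranked higher at its own. At the nearer position the percentiles were 85.1 and 81.9 in SMC and 58.0 and 79.1 in non-SMC, and at the farther one they were 65.4 and 64.3 in SMC and 78.1 and 85.9 in non-SMC. A shared region 16.8 kb before the gene (chr15:96270273-96270905) ranked at 99.2 and 94.7 in SMC and at 69.5 and 74.1 in non-SMC. The strongest one-type region was non-SMC-only at +90.0 kb (chr15:96377156-96378266), within 1 kb of an inner start at +91.3 kb, with a fold enrichment of 16.3 and 10.2 at percentiles 98.9 and 96.0. The SMC-only region at +9.8 kb (chr15:96297086-96297581) ranked at 82.6 and 91.8. In share of peaks the lines of a type disagreed, with 15.4 and 8.44 per 100000 in SMC and 12.9 and 11.7 in non-SMC.

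*Pbrm1*, the gene of the bromodomain subunit BAF180, lies at chr14:31019138-31121592 on the + strand. Its 7 starts in the first 0.1 kb had a peak in all 4 lines, and the region over them (chr14:31018709-31019223) ranked at 37.2 and 81.2 in SMC and 59.7 and 70.7 in non-SMC, so that the types overlapped there. The highest promoter peak of SMC line 1, at percentile 80.4, was a separate one with its summit 409 bp inside the gene, and the order of the highest promoter peaks given above rests on it. It had 12 and 10 peaks in SMC and 16 and 7 in non-SMC, and the shares overlapped (13.2 and 6.50 against 13.8 and 5.44 per 100000). The one-type region at this locus was non-SMC-only, at +69.6 kb (chr14:31088547-31088837), with percentiles of 92.5 and 76.6 and AP-1 letters at its summit. The shared region 17.6 kb upstream, at the starts of *Glt8d1* and *Spcs1*, ranked higher in both non-SMC lines (84.6 and 92.2 against 75.3 and 84.3).

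The progenitor and neuronal forms differed widely in strength in all 4 lines. *Actl6a* (chr3:32706298-32726973, + strand), the form of dividing cells, had the strongest promoter peak of the 10 genes in every line, with a fold enrichment of 12.5 and 14.7 in SMC and 15.9 and 17.3 in non-SMC and percentiles of 99.3, 99.7, 98.8 and 99.9. The summits stood 2.27 to 2.32 kb inside the annotated 5′ end, at a group of 3 transcript starts between +2.2 and +2.5 kb. The 5′ end itself had no peak within 100 bp. The locus had a slightly larger share in both non-SMC lines, 3.29 and 3.25 per 100000 in SMC against 3.45 and 3.88 in non-SMC, a difference of −0.14 in log2 share (SD 0.087) that rests on 3 to 5 peaks per line and turned to 0.41 when the flanks were left out.

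*Actl6b* (chr5:137553517-137569582, + strand), the neuronal form, had a region at its 5′ end that was SMC-only (chr5:137553476-137553906). It was weak, with a fold enrichment of 3.32 in SMC line 1 and 4.14 in SMC line 2, percentiles of 42.8 and 78.4 and a −log10 q of 1.15 and 3.63. All 6 annotated starts had a peak within 100 bp in SMC line 2, 2 of them also in SMC line 1, and none in either non-SMC line. The promoter peaks of the non-SMC lines were elsewhere, at +0.52 kb in non-SMC line 1 (percentile 38.6) and at −2.14 kb in non-SMC line 2 (percentile 76.6). The difference at the start was therefore one of position within the 6 kb window, with 4 fragments behind the peak of SMC line 1. Near the end of the gene, at the starts of *Tfr2*, the gene that follows it, a region at +16.3 kb was non-SMC-only (percentiles 53.0 and 67.8). Another there, at +21.1 kb, was SMC-only (percentiles 80.9 and 19.5).

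*Dpf1* (chr7:29303951-29318243, + strand), which encodes the neuronal subunit BAF45B, had a shared peak at +3.97 kb (chr7:29307624-29308027), where 3 of its 10 starts lie. It ranked at 80.4 and 77.2 in SMC and 79.6 and 64.3 in non-SMC. Around the 5′ end the peaks were weak in SMC, at percentiles 11.3 and 48.4, and in non-SMC the highest were at +0.79 kb (54.1) and −0.15 kb (80.2). A non-SMC-only region at +11.4 kb (chr7:29314763-29315511) lay at an inner start at +11.1 kb, with percentiles of 59.8 and 78.0 and with RUNX and TEAD letters at its summit. The SMC-only region at +1.5 kb was among the weakest peaks of both lists (2.1 and 3.3). *Dpf1* had the largest difference in log2 share of the 10 genes, 0.68, but also a large SD of 0.55, and the groups overlapped, with 7.69 and 5.20 per 100000 in SMC and 2.59 and 5.44 in non-SMC. The low value of non-SMC line 1, with 3 peaks, set it apart from the other 3 lines, and the difference was 0.21 without it. It was 0.05 with a −log10 q of at least 5, 0.04 without flanks and −0.45 after depth scaling. At that q threshold the locus held only 0 and 1 peaks in the SMC lines and 1 and 1 in the non-SMC lines.

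*Smarcd3* (chr5:24590818-24624411, − strand) had 3 non-SMC-only and 0 SMC-only regions. *Smarca4*, *Smarca2*, *Arid1a* and *Pbrm1* also had 0 SMC-only regions, with 2, 2, 2 and 1 non-SMC-only. The strongest was in an intron at +12.3 kb (chr5:24611316-24612528), with a fold enrichment of 11.5 and 9.54, percentiles of 93.5 and 95.0 and a −log10 q of 44.4 and 18.9. The others were at +19.4 kb (53.7 and 57.2) and at +26.8 kb (53.5 and 64.6), the latter within 1 kb of an inner start. Of its 9 starts, the 4 at +22.4 to +22.5 kb had a peak in non-SMC line 1 alone. That peak was among the weakest of its list (percentile 0.76, −log10 q 0.96). The local background under the peaks of this locus was also higher in the non-SMC lines, with a median of 2.95 and 3.07 times the lowest background of the library against 1.64 and 1.77 in SMC, and its part in the result was not tested. The share of peaks at the locus was 9.88 and 6.50 per 100000 in SMC and 11.2 and 9.32 in non-SMC, a difference of −0.33 in log2 share with an SD of 0.33, and the values of the types overlapped.

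Across the 10 loci, the share of peaks was higher in both SMC lines at *Smarca4*, *Arid1a* and *Arid1b* (3 of 10, beside 19.1% of all loci) and higher in both non-SMC lines at *Actl6a* (1 of 10, beside 17.4%). The median difference in log2 share was 0.10, beside 0.04 over all genes. Both counts change with the peaks that are kept. With a −log10 q of at least 5 they were 1 and 3, and the difference at *Arid1a* turned to −0.17 and that at *Actl6a* to 0.60. Peaks that strong numbered 1 and 5 in SMC and 7 and 4 in non-SMC at *Arid1a*. At *Actl6a* they numbered 2 and 2 in SMC and 3 and 2 in non-SMC, in lists of 13062 to 43984 such peaks. For the other 6 genes the values of the types overlapped.

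**Figure D5:**
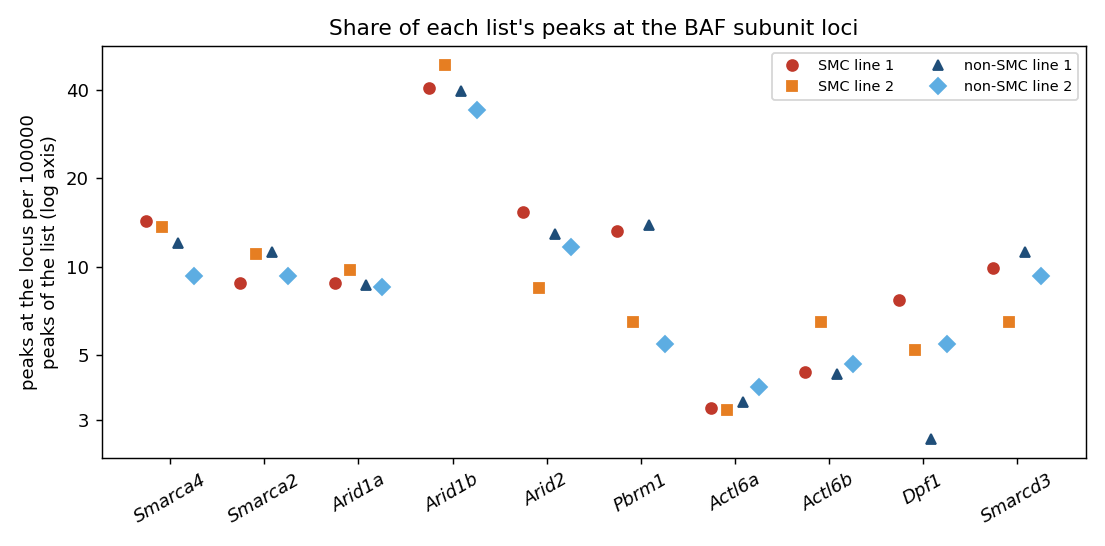
Peaks at each locus per 100000 peaks of the library's list (vertical log axis) for SMC line 1 (circles), SMC line 2 (squares), non-SMC line 1 (triangles) and non-SMC line 2 (diamonds). Both SMC lines lie above both non-SMC lines at *Smarca4*, *Arid1a* and *Arid1b* and below them at *Actl6a*, whereas *Arid2*, *Pbrm1* and *Dpf1* spread widely within a type.

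Of the 30 regions open in all 4 lines, 20 were within 1 kb of a transcript start (66.7%, beside 76.2% of shared regions over all loci), against 3 of 12 SMC-only (25.0%, beside 16.2%) and 4 of 22 non-SMC-only regions (18.2%, beside 11.3%). Introns of any protein-coding gene held 10 SMC-only regions of the 12 (83.3%, beside 64.7%) and 15 non-SMC-only regions of the 22 (68.2%, beside 67.5%). The summits of the 4 libraries fell within 200 bp of each other in 18 of the 30 shared regions (60.0%, beside 63.1%). Peaks of shared regions ranked higher in both SMC lines in 10 of 30 (beside 31.9%) and higher in both non-SMC lines in 5 of 30 (beside 15.1%), close to the shares over all loci.

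The other genes of the complexes were counted as a list of 19, among them the core subunits *Smarcb1*, *Smarcc1* and *Smarcc2* and the ncBAF genes *Brd9* and *Bicra*. The promoters of 17 of the 19 had a peak in all 4 lines, beside 48.7% over all genes. None was open in one type alone, beside 3.08% SMC-only and 2.45% non-SMC-only promoters over all genes. *Smarce1* had no promoter peak in SMC line 1, and *Phf10* had none in SMC line 2 and non-SMC line 2. The share of peaks was higher in both SMC lines at 4 of the 19 (*Smarcd2*, *Dpf2*, *Dpf3* and *Bcl7c*), beside 19.1% of all loci. It was higher in both non-SMC lines at 1 of the 19 (*Ss18*), beside 17.4%. *Dpf3*, a paralog of *Dpf1* that encodes BAF45C, had the largest difference of the 19, with 28.6 and 11.7 per 100000 peaks in SMC and 3.45 and 6.99 in non-SMC (1.80 in log2 share, SD 0.79). Its locus held 4 SMC-only and 0 non-SMC-only regions. *Bcl7c* followed at 0.71, and the lowest values were −0.73 at *Ss18* and −0.70 at *Smarce1*. The list had 19 SMC-only (4.51%), 24 non-SMC-only (5.70%) and 37 shared regions (8.79%) of 421. Over the loci of all protein-coding genes these shares were 4.28%, 7.17% and 4.89%.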

How the data were processed

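ATAC-seq was performed on 4 cell lines. According to the methods, the authors mapped paired-end reads to mm10 with Bowtie2 v2.3.4, removed duplicates with sambamba and called peaks in each library separately with MACS2 v2.1.1, with no settings given. The authors deposited, for the summit of each peak, a fold enrichment and the −log10 of its p-value and q-value. The fold enrichment is the ratio of the pileup to the local background of that library, with 1 added to each. This lowers it most where the background is low. The lowest background was 0.46 and 1.54 in SMC lines 1 and 2 and 1.49 and 0.64 in non-SMC lines 1 and 2. The lowest deposited −log10 p was between 2.00 and 2.01 in all 4 lists.

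Only peaks of the 19 autosomes, X and Y entered, matched to GENCODE M21 genes. The pileup and background were recovered from fold enrichment and p for all but 3 to 5 peaks per library. Implied depth is the lowest background times the preset mouse genome size divided by the shortest peak, both assumed. Share is the peaks at a locus per 100000 of the list, on a log2 scale with 0.5 peaks added. On simulated data the recovery step was right for 20000 of 20000 peaks and the overlap counts equaled bedtools at 300 of 300 loci. The 10 genes, the 19 other BAF genes, the motifs and the markers were chosen with earlier results of these data known. All 10 genes are named, with the 2 highest regions per pattern by mean percentile, neighbors whose start is within 1 kb of such a region, and of the other list the 2 highest and 2 lowest by log2 share. Further one-type regions, *Smarcd2* and *Dpf2*, *Phf10*, and the transcript starts were described after their values were seen. One SMC marker and 1 neighboring gene are not reported here. RefSeq promoters were found for 9 of the 10 genes and are not printed. Replicates are lines named as separate by the labels. The labels do not say what a pair shares, so a pairing of the lines was treated as an alternative. Deviations of same-numbered lines correlated at r = 0.08 over 16987 loci. This value cannot settle whether the pairs share an origin, because line 1 was the shallower in SMC and the deeper in non-SMC. The steps ran in samtools 1.23.1, bedtools 2.31.1 and Python 3.11.15 with pandas 2.3.3, scipy 1.17.1, numpy 2.4.6 and matplotlib 3.10.9.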

Additional observations from a re-analysis of the deposited data

Results flagged for a closer look

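At 4 of the 10 loci the difference in log2 share between SMC and non-SMC had one sign in the lines numbered 1 and the other sign in the lines numbered 2. The difference between the pairs was not tested, and 2 pairs cannot separate it from the spread between lines. *Smarca2* was −0.32 in pair 1 and 0.23 in pair 2, a gap of −0.55. *Arid2* was 0.25 in pair 1 and −0.46 in pair 2, a gap of 0.71. *Pbrm1* was −0.05 and 0.23, a gap of −0.28. *Dpf1* was 1.45 and −0.08, a gap of 1.52, with 3 peaks at the locus in non-SMC line 1 against 7 in SMC line 1.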

How the results depend on the processing

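The counts of the report rest largely on weak peaks. When the −log10 q had to reach 5, the members with a higher share in both SMC lines numbered 1 (3 in the report) and in both non-SMC lines 3 (1 in the report), 2 promoters were open in all libraries, and 4 regions were SMC-only and 10 non-SMC-only (12 and 22 in the report). After scaling to the depth of the shallowest library with p up to 1e-05, these counts were 1, 3, 2, 4 and 12, and the median log2 share was 0.36 in place of 0.10. The scaled lists were still unequal, with 30376 and 11713 peaks in SMC and 30276 and 31335 in non-SMC. The part of the short list of SMC line 2 in the value of 0.36 was not tested. When every list was reduced to its 91057 top peaks, 1 member was higher in both SMC lines. Flanks of 50 kb gave 34 non-SMC-only regions. *Arid1a* turned to −0.17 at the q threshold and to −0.23 after depth scaling, and *Actl6a* turned to 0.60, 0.71 and, without flanks, 0.41. Leaving out 1 library at a time, SMC-only regions ranged from 15 to 118 (118 without SMC line 1, 69 without SMC line 2, 19 without non-SMC line 1), non-SMC-only regions from 22 to 82 (82 without non-SMC line 1, 80 without non-SMC line 2), members higher in both SMC lines from 4 to 5 and in both non-SMC lines from 1 to 4. A pattern over fewer libraries asks for fewer peaks, so these counts are higher by construction. With the lines paired by number as a block, the counts within pairs averaged 105 SMC-only and 92.5 non-SMC-only regions and 2 members higher in non-SMC, and the block left the promoter counts as they were. Over these counts 51 of 77 values and over single genes 85 of 110 stayed within 1.5 times or within the SD between lines. For single genes, leaving out 1 library cannot move a value beyond that SD, and pairing gives the same value again. Those single-gene values stayed by construction, so 85 of 110 does not measure how stable the genes were. Causes of the other changes were not tested. Depth limits what an absent peak shows in SMC line 1 and non-SMC line 2.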
